A study of Mus musculus with 6 samples.

Results

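The transcripts described here are 39 genes of antigen-presenting cells: MHC class II chains with their loading machinery, and genes of macrophages, monocytes and dendritic cells. They were taken by gene name from a list drawn up with earlier results of these data known, and all 39 were found among the 15898 genes of the count table. They were measured in RNA of sorted CD8+ T cells, so the question was in which libraries they were found and how far they varied together. Groups were compared over libraries, with 4 libraries from mice given IL-10/Fc and 2 from mice given PBS.

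Each library held 500 tumour-infiltrating CD8+ T cells that carried Thy1.1, PD-1 and TIM-3, sorted from B16F10 melanomas on day 18 at a stated purity above 99%. The cells were PMEL cells from mice with the transgene Tg(TcraTcrb)8Rest and the Thy1a allele, and their transgenic T cell receptor recognises a melanocyte antigen. They had been given as naïve cells on day -3 to C57BL/6 hosts irradiated with 4 Gy on day -4, and tumour cells followed on day 0. The IL-10/Fc group received 20 µg of the interleukin-10 Fc fusion protein beside the tumour every other day from day 10, 4 doses in all. The PBS group received PBS by the same route. Both groups received activated Thy1.2+ PMEL CD8+ T cells on day 10, which the Thy1.1 gate leaves out. The labels do not give which host macrophages and dendritic cells remained in the tumours. Whether every library stands for a separate mouse is not stated, and p-values therefore cover only how far these libraries differed, which may be technical.

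MHC class II molecules are pairs of an alpha and a beta chain that show peptides from endosomes to CD4+ T cells. Dendritic cells, macrophages and B cells make them under the control of the transactivator Ciita. The invariant chain, Cd74, holds the peptide groove until cathepsins such as Ctss cut it away and H2-DM loads peptide. Macrophages also use Fc gamma receptors, of which the activating ones signal through the ITAM adaptor Fcer1g. They also secrete C1q, the recognition unit of the classical complement pathway. Mouse T cells are not known for class II synthesis, while Fcer1g, Itgax and Itgam have been described in activated or innate-like CD8+ T cells.

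Library sizes were 26738871 to 36941814 counts, and 3 counts equalled 0.0855 to 0.108 CPM (counts per 1000000 counts of the library, scaled between libraries by TMM, the trimmed mean of M-values). The 17 T cell identity genes summed to 48704, 50324, 43696 and 46651 CPM in IL-10/Fc replicates 1 to 4, against 32552 and 40087 CPM in PBS replicates 1 and 2. All 39 members together summed to 826, 2002.1, 4470.4 and 3236 CPM in IL-10/Fc replicates 1 to 4, against 1023 and 1400.1 CPM in PBS replicates 1 and 2, a smaller share of the counts of every library. PBS replicate 1 stood apart. Cd8a, a chain of the CD8 co-receptor, had 3161, 3097, 2896 and 3144 CPM in IL-10/Fc replicates 1 to 4, against 910.4 and 2292 CPM in PBS replicates 1 and 2. Ccr7, a chemokine receptor of naïve T cells and of migrating dendritic cells, had 232, 108, 119.8 and 129 CPM in IL-10/Fc replicates 1 to 4, against 4010.0 and 548 CPM in PBS replicates 1 and 2. Thus Cd8a was lowest and Ccr7 highest in PBS replicate 1.

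Most class II, Fc receptor and C1q transcripts were high in IL-10/Fc replicates 3 and 4, intermediate in replicate 2 and near PBS levels in replicate 1. No member passed the threshold of the main test between the groups, and only 1 of all 15477 genes tested did. The quasi-likelihood test of edgeR, adjusted by Benjamini-Hochberg over 15477 genes, called 0 of 38 members higher and 0 of 38 lower at adjusted p under 0.05, where it called 0.00646% of all genes higher and 0% lower. The 39th member, Cd209a, failed the filter on low counts. At unadjusted p under 0.05 the same test called 7 members higher, 18.4% of 38, against 7.2% of all genes, and 1 lower, 2.63% of 38, against 5.52% of all genes. Limma-voom also called 0 members in either direction, and DESeq2's Wald test called 8 of 39 members higher (20.5%) and 0 lower, against 3.22% of all genes called higher and 1.51% called lower. Without IL-10/Fc replicate 1 DESeq2 called 18 of 39 members higher (46.2%), against 2.89% of all genes in the same fit. That library held the lowest value of 18 of the 38 members tested, so leaving it out was bound to favour such calls. Without PBS replicate 1 DESeq2 called 5 of 39 (12.8%), against 2.79% of all genes. Both of these fits were added after seeing the data. The median log2 fold change of the 38 members, IL-10/Fc over PBS, was 1.46, against -0.01 for all genes tested, and it stayed at 1.46 with Mrc1, which had no PBS count, set at its lower bound. It was 1.11 without PBS replicate 1. Of the 38 members, 33 had a positive and 5 a negative log2 fold change. By role, the median was 2.50 for the class II chains, 1.36 for class II loading and control, 2.08 for the ITAM adaptors, 1.60 for the Fc gamma receptors and 1.77 for C1q. It was 1.22 for macrophage surface and lysosome genes, 0.35 for secreted and effector genes and -0.20 for dendritic cell markers. In a bulk library, fewer cells of a type and less RNA per cell cannot be told apart.

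The members took a small share of every library. All 39 together held 0.0789%, 0.191%, 0.440% and 0.307% of the counts in IL-10/Fc replicates 1 to 4, against 0.113% and 0.149% in PBS replicates 1 and 2. IL-10/Fc replicate 1 was the lowest of the 6 libraries and IL-10/Fc replicate 3 the highest, so the groups overlapped. For scale, 1 cell of 500 is 0.2% of the sorted cells, a figure that takes no account of RNA per cell. The 39 members are only part of the RNA of any cell, so their share of counts is not a share of cells. How many cells the members came from was not tested.

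Most members were highest in IL-10/Fc replicates 3 or 4. IL-10/Fc replicate 3 held the highest value of 20 of the 38 members tested (52.6%), against 13.8% of all genes, and IL-10/Fc replicate 4 held that of 10 (26.3%), against 13.5% of all genes. IL-10/Fc replicates 1 and 2 held the highest value of 1 and 2 members, against 17.8% and 15.5% of all genes. PBS replicates 1 and 2 held that of 2 and 3 members, against 22.1% and 17.3% of all genes. Leaving ties aside, IL-10/Fc replicate 1 held the lowest value of 18 of the 38 members (47.4%), against 17.6% of all genes, and PBS replicate 1 that of 13 (34.2%), against 20.4% of all genes. The groups did not overlap for 7 of 38 members that were higher in IL-10/Fc libraries (18.4%), against 12.1% of all genes, and for 1 that was lower (2.63%), against 11.5% of all genes. Among the 7, Ciita and Mrc1 were apart by little. Ciita had 4 counts in both IL-10/Fc replicate 2 and PBS replicate 2. Mrc1 had 1 count in IL-10/Fc replicate 2, under the floor of 3, and 0 in both PBS libraries.

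**Figure D1:**
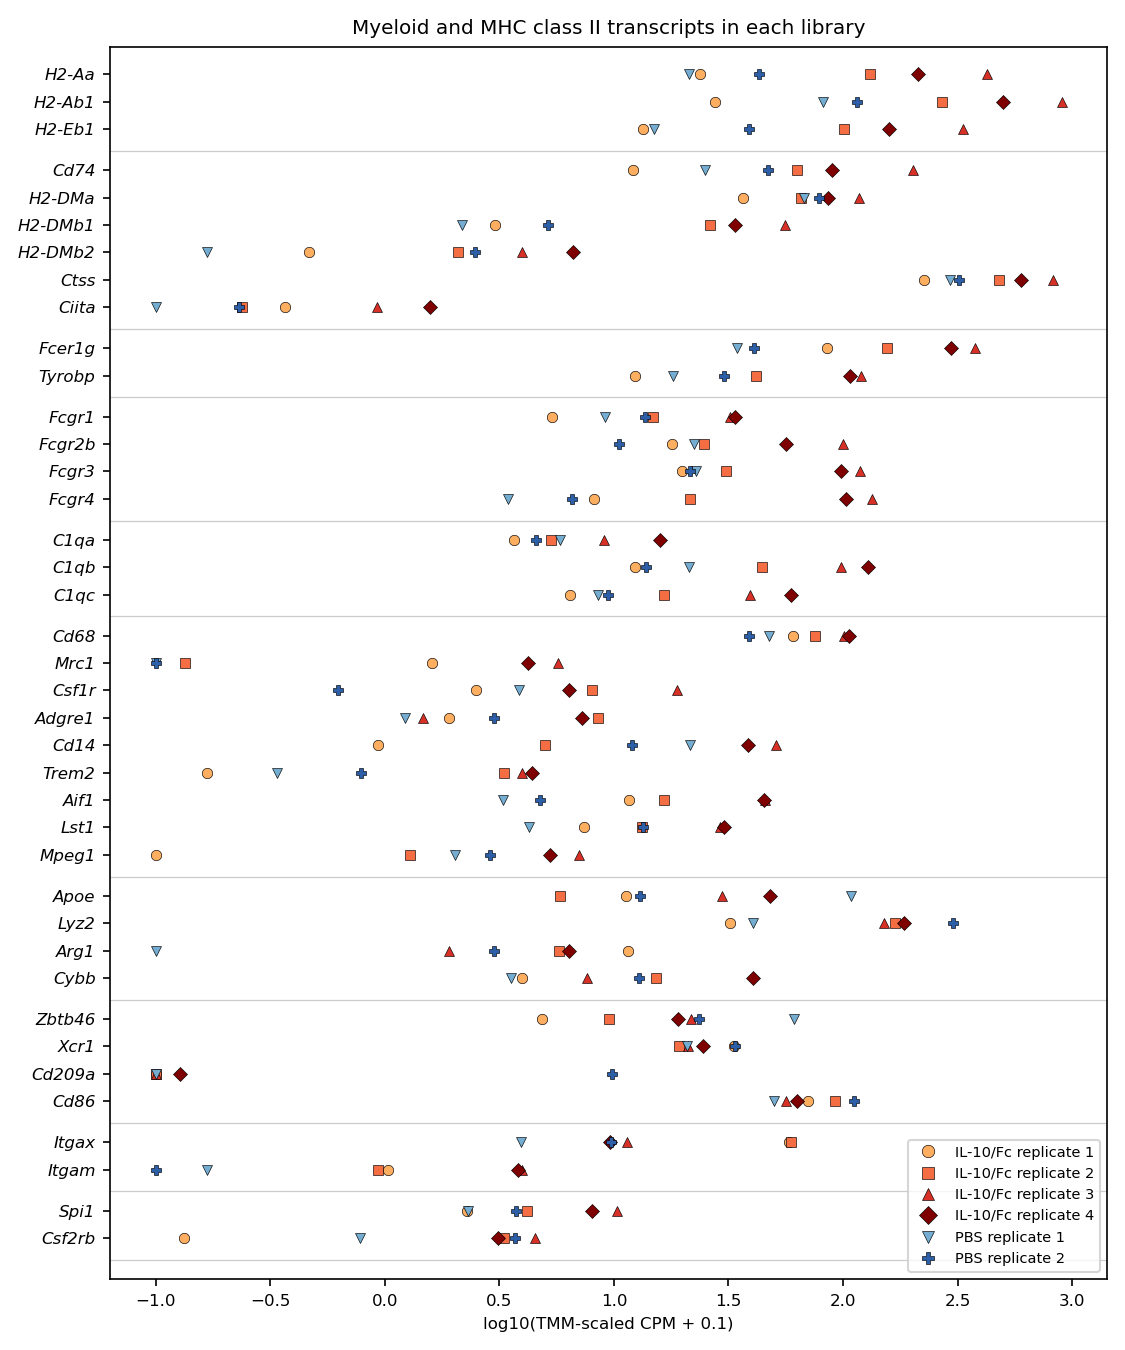
Level of each member in each library as log10(TMM-scaled CPM + 0.1), with members down the page by role. Each point is 1 library, 4 of IL-10/Fc and 2 of PBS, and the IL-10/Fc and PBS points overlap for most members.

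The class II chains varied widely between libraries. H2-Aa, the alpha chain of I-A, had 23.7, 131, 425 and 213 CPM in IL-10/Fc replicates 1 to 4, against 21.2 and 43.1 CPM in PBS replicates 1 and 2. H2-Ab1, its beta chain, had 27.4, 269, 899 and 498 CPM in IL-10/Fc replicates 1 to 4, against 81.4 and 115 CPM in PBS replicates 1 and 2. H2-Eb1, a beta chain of the class II locus, had 13.2, 100.98, 335 and 159 CPM in IL-10/Fc replicates 1 to 4, against 14.9 and 38.9 CPM in PBS replicates 1 and 2. All 3 chains were highest in IL-10/Fc replicate 3, followed by replicates 4 and 2, while IL-10/Fc replicate 1 was within or below the PBS values. The edgeR log2 fold changes were 2.62 ± 1.09 for H2-Aa, 2.11 ± 1.19 for H2-Ab1 and 2.50 ± 1.20 for H2-Eb1 (SE), with adjusted p of 0.395, 0.522 and 0.459. H2-Aa averaged 198 ± 169.9 CPM in IL-10/Fc libraries and 32.1 ± 15.5 CPM in PBS libraries (SD, n = 4 and 2), so the spread within the IL-10/Fc group was nearly as large as its mean. C57BL/6 mice carry a deletion at the start of H2-Ea, so H2-Eb1 transcripts in that strain do not yield a surface I-E molecule.

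The promoters of 3 class II genes are shown because these genes lie in the same stretch of chromosome 17 and had among the closest profiles over the libraries. Sequences are RefSeq's for GRCm38.p6, from 250 bases before to 50 after the gene start, read on the gene's strand. Capitals mark GATTGG on either strand (CCAATC on the other), the core of the Y box bound by NF-Y, and CTAGNAACTGATGATGCT, the longest run that the H2-Eb1 and H2-DMb1 promoters share with at most 1 mismatch (N). That run was taken from these promoters, and it resembles the X box, the element of class II promoters that RFX binds. H2-Aa lies at chr17:34287774-34288073 on the minus strand, H2-Eb1 at chr17:34305617-34305916 on the plus strand and H2-DMb1 at chr17:34152941-34153240 on the plus strand.
H2-Aa: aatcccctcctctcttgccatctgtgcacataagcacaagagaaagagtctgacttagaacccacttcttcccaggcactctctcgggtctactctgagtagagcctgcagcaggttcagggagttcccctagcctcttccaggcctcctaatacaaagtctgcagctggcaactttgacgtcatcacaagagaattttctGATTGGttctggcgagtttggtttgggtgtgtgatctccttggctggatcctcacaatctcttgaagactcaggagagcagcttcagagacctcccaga
H2-Eb1: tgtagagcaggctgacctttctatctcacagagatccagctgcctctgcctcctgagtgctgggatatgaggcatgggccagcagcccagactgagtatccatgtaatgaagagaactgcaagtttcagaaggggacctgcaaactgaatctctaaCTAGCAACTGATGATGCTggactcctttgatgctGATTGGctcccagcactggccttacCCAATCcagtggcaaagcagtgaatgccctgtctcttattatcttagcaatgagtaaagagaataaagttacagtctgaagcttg
H2-DMb1: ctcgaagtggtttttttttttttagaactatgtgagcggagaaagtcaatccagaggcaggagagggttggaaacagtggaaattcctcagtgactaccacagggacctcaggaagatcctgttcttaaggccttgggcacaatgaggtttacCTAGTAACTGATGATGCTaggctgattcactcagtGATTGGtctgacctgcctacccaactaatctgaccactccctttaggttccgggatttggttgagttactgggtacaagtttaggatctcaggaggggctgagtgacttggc
Searched on both strands, GATTGG was found in 18.2% of the promoters of 27025 genes and in 8 of the 26 members that matched a promoter: H2-Aa, H2-Eb1, H2-DMa, H2-DMb1, H2-DMb2, Cd68, Trem2 and Xcr1. CTAGNAACTGATGATGCT was found in 2 of the 27025, the genes it was taken from. Counted from the gene start, GATTGG began at -49 in H2-Aa, -60 in H2-Eb1 and -62 in H2-DMb1, and the shared run began at -94 in H2-Eb1 and -97 in H2-DMb1. The motifs did not overlap, and a match is a description of letters in this window.

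Among the loading genes, Cd74, the invariant chain, had 11.96, 62.7, 202 and 88.9 CPM in IL-10/Fc replicates 1 to 4, against 24.8 and 46.96 CPM in PBS replicates 1 and 2. H2-DMb1, a beta chain of the peptide exchanger H2-DM, had 2.92, 26.1, 55.7 and 33.5 CPM in IL-10/Fc replicates 1 to 4, against 2.07 and 5.03 CPM in PBS replicates 1 and 2. Both followed the class II chains in order over the IL-10/Fc libraries. H2-DMa, the alpha chain of H2-DM, had 36.6, 65.6, 117 and 85.8 CPM in IL-10/Fc replicates 1 to 4, against 67.2 and 78.1 CPM in PBS replicates 1 and 2, with both PBS values inside the IL-10/Fc range. Ctss, the protease cathepsin S, had 226, 477, 826 and 597 CPM in IL-10/Fc replicates 1 to 4, against 293 and 319.8 CPM in PBS replicates 1 and 2. Its IL-10/Fc replicate 1 lay below and the other three IL-10/Fc libraries above PBS.

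H2-DMb1 had an edgeR log2 fold change of 3.05 ± 1.14 (SE, unadjusted p = 0.0353, adjusted p = 0.362 by the quasi-likelihood test), and its groups overlapped. Cd74 had 1.35 ± 0.99 (adjusted p = 0.644), Ctss 0.79 ± 0.47 (adjusted p = 0.547) and H2-DMa 0.07 ± 0.42 (adjusted p = 0.976) in the same edgeR fit. H2-DMb2, a second beta chain gene similar to H2-DMb1, had 0.369, 1.99, 3.89 and 6.499 CPM in IL-10/Fc replicates 1 to 4, against 0.0679 and 2.39 CPM in PBS replicates 1 and 2. Reads may be split between H2-DMb1 and H2-DMb2, and 10.4% of the H2-DMa exon bases overlap Brd2 on the other strand in libraries prepared without strand information. Ciita, the class II transactivator, had 8, 4, 23 and 52 counts in IL-10/Fc replicates 1 to 4, against 0 and 4 counts in PBS replicates 1 and 2. All 4 IL-10/Fc values reached or passed 4 counts, the higher PBS value, and scaled for depth the groups did not overlap, but every library stayed below 2 CPM. Its edgeR log2 fold change of 3.29 ± 1.72 had an adjusted p of 0.493.

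The other 16 listed genes of the class II pathway, which include antigen-processing enzymes and regulators such as the RFX and NF-Y subunits, had a median edgeR log2 fold change of 0.13, 10 above 0 and 6 below. None of the 16 was called by edgeR's adjusted p, by DESeq2 or in the authors' deposited table. The smallest p among them belonged to Cd80, a costimulatory ligand, which had 6.43, 17.3, 14.9 and 23.5 CPM in IL-10/Fc replicates 1 to 4, against 30.9 and 43.6 CPM in PBS replicates 1 and 2. It was lower in every IL-10/Fc library than in either PBS library, with an edgeR unadjusted p of 0.0333 and an adjusted p of 0.354. H2-Oa, next by edgeR p, had 4.99, 4.05, 5.08 and 9.35 CPM in IL-10/Fc replicates 1 to 4, against 9.85 and 13.8 CPM in PBS replicates 1 and 2. It too was lower without overlap, unlike the class II chains (edgeR unadjusted p = 0.0416, adjusted p = 0.382). The 20 genes of the MHC class I pathway, which all nucleated cells use, summed to 23931, 25041, 21025 and 22130.4 CPM in IL-10/Fc replicates 1 to 4, against 16546 and 19523 CPM in PBS replicates 1 and 2. Their median log2 fold change was 0.17. Nlrc5, the class I transactivator, had 63.8, 68.7, 51.8 and 56.5 CPM in IL-10/Fc replicates 1 to 4, against 28.98 and 58.9 CPM in PBS replicates 1 and 2.

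**Figure D2:**
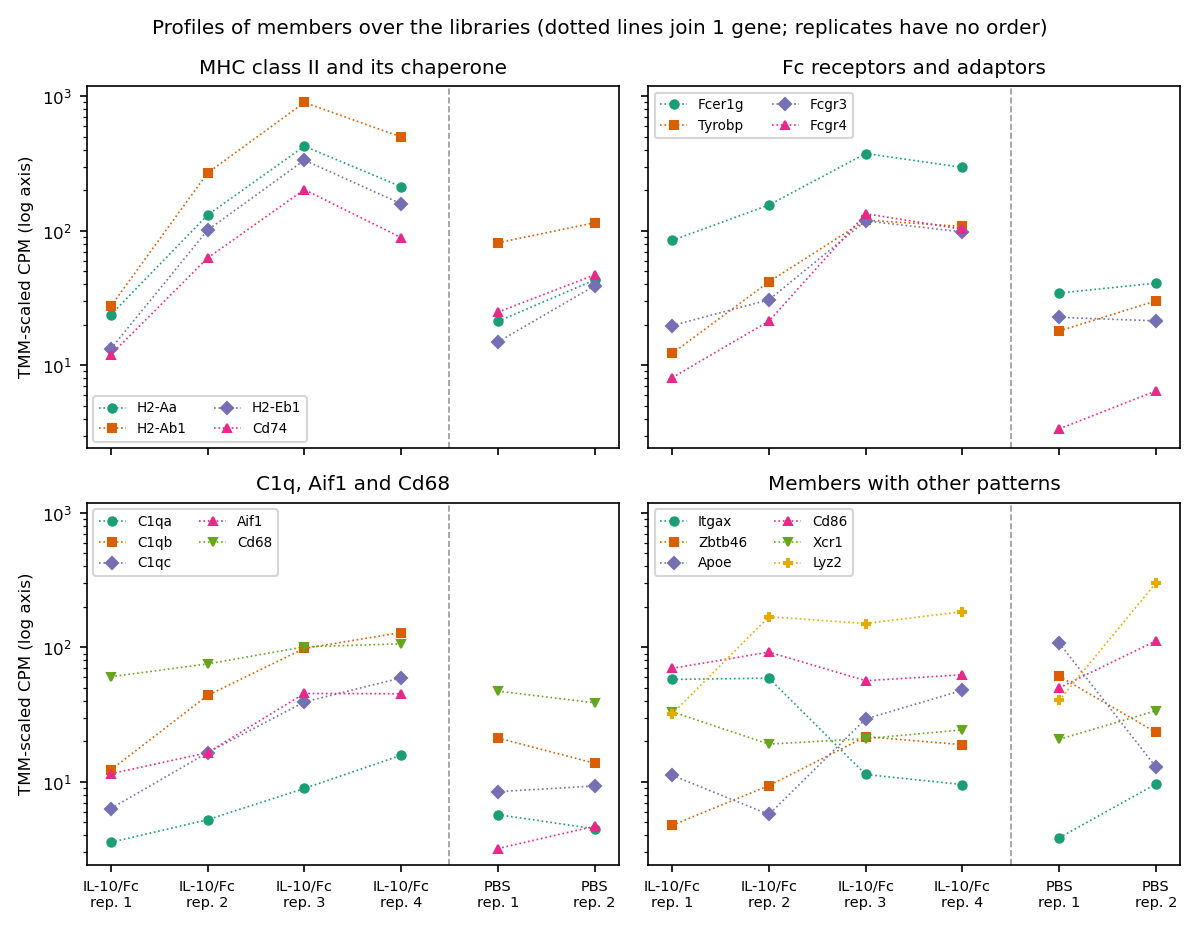
TMM-scaled CPM on a log axis in the 6 libraries, IL-10/Fc left of the dashed line and PBS right of it, for class II genes, Fc receptors and adaptors, C1q with Aif1 and Cd68, and members with other patterns. Points are single libraries and replicates have no order. The first 3 panels are highest in IL-10/Fc replicates 3 and 4, while Itgax is highest in IL-10/Fc replicates 1 and 2 and Apoe in PBS replicate 1.

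Fcer1g, the ITAM adaptor of Fc receptors, was the adaptor with the clearest separation. Its levels were 84.6, 155, 375 and 296 CPM in IL-10/Fc replicates 1 to 4, against 34.4 and 40.7 CPM in PBS replicates 1 and 2. Every IL-10/Fc library exceeded both PBS libraries, including IL-10/Fc replicate 1. The edgeR log2 fold change was 2.60 ± 0.64 (SE, unadjusted p = 0.00601, adjusted p = 0.231, quasi-likelihood test). Per length, Fcer1g averaged 260.5 CPM per kb of exon in IL-10/Fc libraries and 42.98 CPM per kb in PBS libraries. Tyrobp, the ITAM adaptor also known as DAP12, had 12.2, 41.6, 120.0 and 108 CPM in IL-10/Fc replicates 1 to 4, against 17.97 and 30.1 CPM in PBS replicates 1 and 2, and its groups overlapped (edgeR log2 fold change 1.55 ± 0.90, adjusted p = 0.537).

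Of the 4 Fc gamma receptors, Fcgr4, an activating receptor of monocytes and macrophages, had 8.08, 21.3, 134 and 103 CPM in IL-10/Fc replicates 1 to 4, against 3.36 and 6.44 CPM in PBS replicates 1 and 2. Its lowest IL-10/Fc value was above both PBS values, and IL-10/Fc replicates 3 and 4 were far above the others (edgeR log2 fold change 3.76 ± 1.30, adjusted p = 0.337). Fcgr3, a second activating receptor, had 19.7, 30.7, 118 and 97.99 CPM in IL-10/Fc replicates 1 to 4, against 22.7 and 21.4 CPM in PBS replicates 1 and 2. Fcgr2b, the inhibitory receptor, had 17.8, 24.5, 99.4 and 56.1 CPM in IL-10/Fc replicates 1 to 4, against 22.4 and 10.4 CPM in PBS replicates 1 and 2. Both were highest in IL-10/Fc replicate 3, and IL-10/Fc replicate 1 was below at least 1 PBS library. Their edgeR log2 fold changes were 1.60 for Fcgr3 and 1.59 for Fcgr2b, with adjusted p of 0.469 and 0.472. Fcgr2b and Fcgr3 have similar extracellular sequence, and reads may be split between them. Fcgr1, the high-affinity receptor, ranged over 5.29 to 33.7 CPM in IL-10/Fc libraries and 9.002 to 13.6 CPM in PBS libraries.

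C1q is built from chains A, B and C, encoded within a short stretch of chromosome 4. C1qb had 12.3, 43.98, 98.3 and 129 CPM in IL-10/Fc replicates 1 to 4, against 21.2 and 13.8 CPM in PBS replicates 1 and 2. C1qc had 6.33, 16.5, 39.3 and 59.3 CPM in IL-10/Fc replicates 1 to 4, against 8.46 and 9.31 CPM in PBS replicates 1 and 2. Both were highest in IL-10/Fc replicates 4 and 3 and lowest in IL-10/Fc replicate 1. The edgeR log2 fold changes were 2.02 ± 0.91 for C1qb and 1.77 ± 0.87 for C1qc (SE, adjusted p = 0.431 and 0.472). C1qa ranged over 3.55 to 15.8 CPM in IL-10/Fc libraries and 4.48 to 5.71 CPM in PBS libraries.

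Of the macrophage surface and lysosome genes, Cd68, a lysosomal glycoprotein, had 60.5, 75.3, 100.97 and 106 CPM in IL-10/Fc replicates 1 to 4, against 47.3 and 38.7 CPM in PBS replicates 1 and 2. Aif1, a calcium-binding protein of macrophages also known as IBA1, had 11.5, 16.5, 45.5 and 45.2 CPM in IL-10/Fc replicates 1 to 4, against 3.19 and 4.67 CPM in PBS replicates 1 and 2. In both genes every IL-10/Fc library exceeded both PBS libraries. Cd68 had an edgeR log2 fold change of 0.996 ± 0.27 (unadjusted p = 0.00874, adjusted p = 0.254) and Aif1 of 2.91 ± 0.72 (unadjusted p = 0.00625, adjusted p = 0.231). Mrc1, the mannose receptor, had 45, 1, 155 and 144 counts in IL-10/Fc replicates 1 to 4, against 0 and 0 counts in PBS replicates 1 and 2. Against a floor of 3 counts per PBS library, its mean of 2.81 ± 2.50 CPM in IL-10/Fc libraries (SD, n = 4) was at least 28.1-fold higher. That ratio rests on IL-10/Fc replicates 1, 3 and 4, since replicate 2 had 1 count.

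Cd14, a co-receptor for lipopolysaccharide, had 0.838, 4.88, 50.6 and 38.4 CPM in IL-10/Fc replicates 1 to 4, against 21.4 and 11.9 CPM in PBS replicates 1 and 2. Its IL-10/Fc values lay on both sides of the PBS values. Csf1r, the receptor of macrophage colony-stimulating factor, had 2.41, 7.95, 18.8 and 6.27 CPM in IL-10/Fc replicates 1 to 4, against 3.77 and 0.523 CPM in PBS replicates 1 and 2, with overlap between groups. Exons of Csf1r share 15.1% of their bases with Hmgxb3 on the opposite strand. Trem2, a lipid-sensing receptor of macrophages, had 0.0670, 3.21, 3.89 and 4.304 CPM in IL-10/Fc replicates 1 to 4, against 0.238 and 0.686 CPM in PBS replicates 1 and 2. Lst1, a leukocyte transmembrane adaptor, had 7.34, 13.2, 29.03 and 30.04 CPM in IL-10/Fc replicates 1 to 4, against 4.14 and 13.2 CPM in PBS replicates 1 and 2. Trem2 was low in IL-10/Fc replicate 1 and in both PBS libraries, and Lst1 was highest in IL-10/Fc replicates 3 and 4. Adgre1, the F4/80 antigen, ranged over 1.37 to 8.41 CPM in IL-10/Fc libraries and 1.12 to 2.91 CPM in PBS libraries. Mpeg1, the pore-forming perforin-2, ranged over 0 to 6.95 CPM in IL-10/Fc libraries and 1.94 to 2.78 CPM in PBS libraries. None of these 6 genes had an edgeR adjusted p under 0.05.

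The 4 secreted and effector genes were each highest in a different library, Cybb in IL-10/Fc replicate 4 like several other members. Apoe, a lipid carrier of macrophages, had 11.2, 5.72, 29.4 and 47.97 CPM in IL-10/Fc replicates 1 to 4, against 108 and 12.9 CPM in PBS replicates 1 and 2. Lyz2, lysozyme M, had 32.1, 169, 151 and 185 CPM in IL-10/Fc replicates 1 to 4, against 40.3 and 301 CPM in PBS replicates 1 and 2. Apoe was highest in PBS replicate 1 and Lyz2 in PBS replicate 2, so each negative log2 fold change (-1.35 for Apoe and -0.35 for Lyz2, by edgeR) rested on 1 library. Without PBS replicate 1 the value for Apoe was 0.87, and without PBS replicate 2 that for Lyz2 was 1.73. Lyz2 may share reads with its near copy Lyz1. Arg1, the arginase of alternatively activated macrophages, had 11.4, 5.65, 1.801 and 6.299 CPM in IL-10/Fc replicates 1 to 4, against 0 and 2.91 CPM in PBS replicates 1 and 2. Cybb, the catalytic subunit of the phagocyte oxidase, ranged over 3.89 to 40.5 CPM in IL-10/Fc libraries and 3.46 to 12.8 CPM in PBS libraries. Groups overlapped for all 4 genes.

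Of the dendritic cell markers, Zbtb46, a transcription factor of classical dendritic cells, had 4.76, 9.38, 21.7 and 18.9 CPM in IL-10/Fc replicates 1 to 4, against 61.04 and 23.3 CPM in PBS replicates 1 and 2. Every IL-10/Fc library was below both PBS libraries (edgeR log2 fold change -1.62 ± 0.64, unadjusted p = 0.0432, adjusted p = 0.386). It was the member that was lower without overlap. Xcr1, a chemokine receptor of cross-presenting dendritic cells, had 33.2, 19.1, 20.97 and 24.4 CPM in IL-10/Fc replicates 1 to 4, against 20.7 and 33.8 CPM in PBS replicates 1 and 2. Cd86, a costimulatory ligand, had 69.9, 92.3, 56.5 and 62.6 CPM in IL-10/Fc replicates 1 to 4, against 50.04 and 112 CPM in PBS replicates 1 and 2. Groups overlapped for both, and the edgeR log2 fold changes were -0.16 ± 0.31 for Xcr1 and -0.20 ± 0.35 for Cd86 (SE). Cd209a, a lectin of monocyte-derived dendritic cells, had 0, 0, 0 and 1 counts in IL-10/Fc replicates 1 to 4, against 0 and 297 counts in PBS replicates 1 and 2. Nearly all of its counts were in PBS replicate 2. Ccr7, whose levels are given above, was highest in the same PBS library as Zbtb46.

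The integrins did not follow the class II genes alike. Itgax, the CD11c chain, had 57.8, 59.1, 11.3 and 9.55 CPM in IL-10/Fc replicates 1 to 4, against 3.84 and 9.64 CPM in PBS replicates 1 and 2. IL-10/Fc replicates 1 and 2 were high, and replicates 3 and 4 were close to PBS replicate 2. Its edgeR log2 fold change was 2.35, with an unadjusted p of 0.0547 and an adjusted p of 0.403. Itgam, the CD11b chain, had 28, 24, 107 and 131 counts in IL-10/Fc replicates 1 to 4, against 2 and 0 counts in PBS replicates 1 and 2. All IL-10/Fc libraries were above PBS, at low levels of 0.837 to 3.85 CPM in IL-10/Fc libraries and 0 to 0.0679 CPM in PBS libraries. Exons of Itgam share 68.7% of their bases with the annotated gene Gm49368 on the same strand, so reads may be split between them. Its groups had an edgeR unadjusted p of 0.00655 and an adjusted p of 0.232. Spi1, the myeloid factor PU.1, ranged over 2.18 to 10.2 CPM in IL-10/Fc libraries and 2.21 to 3.63 CPM in PBS libraries. Csf2rb, the shared receptor chain for GM-CSF and interleukins, ranged over 0.0335 to 4.43 CPM in IL-10/Fc libraries and 0.679 to 3.59 CPM in PBS libraries, and it may share reads with its near copy Csf2rb2.

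**Figure D3:**
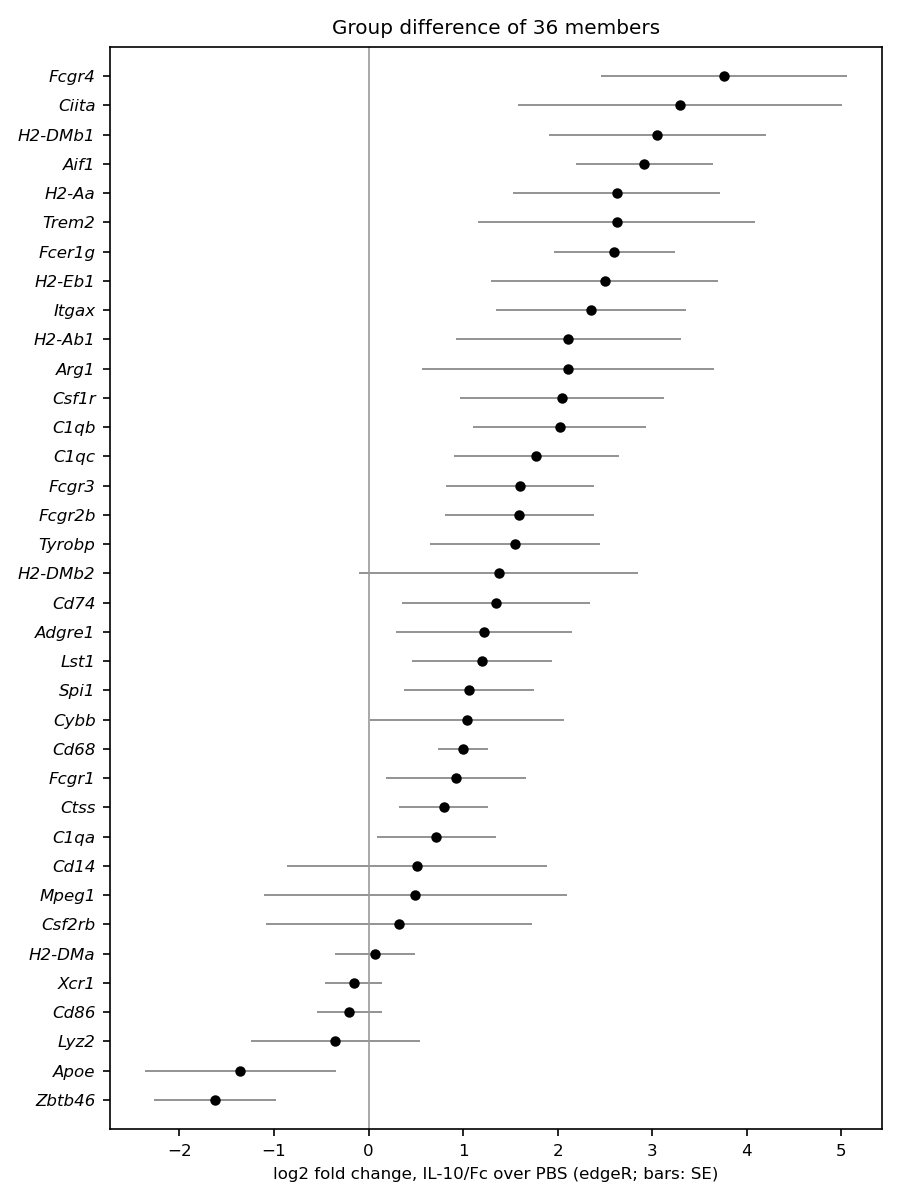
Log2 fold change of the members tested, IL-10/Fc over PBS, from edgeR's quasi-likelihood fit, with members down the page in order of size and bars of 1 SE. Mrc1 and Itgam are left out because both PBS libraries had at most 3 counts. Most points lie right of 0, with wide bars for the class II chains, and Zbtb46 lies farthest left at -1.62.

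The authors' deposited table of the same contrast called 8 of 39 members higher and 0 lower at adjusted p under 0.05, against 3.57% of all genes called higher and 1.72% called lower. In the authors' deposited table, adjusted p was 4.2e-05 for Fcer1g, 0.000120 for Aif1, 0.00126 for Itgam, 0.00163 for Mrc1, 0.0107 for Cd68, 0.0111 for H2-DMb1, 0.0371 for Fcgr4 and 0.0484 for Itgax. The 8 genes were also those that DESeq2 called here. The class II chains and Cd74 were not among them: the authors' deposited table gave an adjusted p of 0.164 for H2-Aa, 0.388 for H2-Ab1, 0.255 for H2-Eb1 and 0.612 for Cd74. Leaving out single libraries removed calls among these 8. Without PBS replicate 1, DESeq2 no longer called Fcer1g, Fcgr4, H2-DMb1 and Itgax. Without PBS replicate 2 it no longer called H2-DMb1, Fcgr4, Cd68 and Itgax. Itgax was also lost without IL-10/Fc replicate 1 or 2, H2-DMb1 without IL-10/Fc replicate 3, and Fcgr4 and Cd68 without IL-10/Fc replicate 4. Fcer1g was lost only without PBS replicate 1, and Mrc1, Aif1 and Itgam were called in all 6 of these fits. Without IL-10/Fc replicate 1, the 18 members that DESeq2 called higher, set above beside the share of all genes, included H2-Aa, H2-Ab1, H2-Eb1, Cd74, Ctss, Tyrobp, C1qb and C1qc. All of these but H2-Aa were lowest in IL-10/Fc replicate 1, the library that this fit left out.

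Members varied together over the 6 libraries. Pearson's r of log2(TMM-scaled CPM + 0.1) over all 741 pairs of members had a median of 0.617, with 28.9% of pairs above 0.8 and 19.4% below 0. Over all 119761026 pairs of genes tested, 3.43% were above 0.8 and 50.2% below 0. These coefficients describe 6 libraries that share depth, scaling and the group difference, and the 4 libraries of the IL-10/Fc group are too few for a test within it. The 3 class II chains and Cd74 had a median r of 0.967 among themselves (6 pairs). The Fc gamma receptors, C1q chains and adaptors had 0.904 (36 pairs, 31 above 0.8). Between the class II genes and these macrophage genes the median was 0.894 (36 pairs, 28 above 0.8), nearly as high as within either group.

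Of 12 pairs chosen for testing, 7 had a Pearson p under 0.05 after Benjamini-Hochberg adjustment over the 12, by a two-sided exact permutation test, and 5 of these also had such a Spearman p. With any 1 library left out, r of the 7 pairs lay between 0.857 and 0.997, and no p was computed over 5 libraries. Coefficients without 2 libraries, given next, rest on 4 and are a description. H2-Aa and Cd74 had r = 0.938 and rho = 0.943 (exact permutation p = 0.00556 and 0.0167, adjusted p = 0.0222 and 0.04), and r = 0.903 without the 2 libraries farthest from the median of H2-Aa. H2-Aa and Ctss had r = 0.978 and rho = 0.943, with r = 0.996 without those 2 libraries. H2-Aa and Fcer1g had r = 0.918 and rho = 0.943, and r = 0.815 without them. Fcer1g and Cd68 had r = 0.971 and rho = 0.886, and r = 0.996 without the 2 libraries farthest from the median of Fcer1g. Values for C1qa and C1qb were r = 0.917 and rho = 0.943, with r = 0.694 after the same step for C1qa. The remaining tested pairs with a Pearson adjusted p under 0.05 were H2-Aa with H2-Ab1 (r = 0.952) and C1qb with Cd68 (r = 0.904, and 0.644 without the 2 libraries farthest from the median of C1qb). Over all 6 libraries Apoe and C1qb had r = 0.263 and rho = 0.371 (exact permutation p = 0.586 for r, adjusted p = 0.631). These include PBS replicate 1, where Apoe was highest at 108 CPM and C1qb had 21.2 CPM. Apoe was next highest in IL-10/Fc replicates 4 and 3, at 47.97 and 29.4 CPM, where C1qb was highest.

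Against the T cell transcript Cd3e, a chain of the T cell receptor complex, coefficients were lower. H2-Aa and Cd3e had r = 0.277 and rho = 0.314 (exact permutation p = 0.631 for r, adjusted p = 0.631), and r = -0.346 without PBS replicate 1. Fcer1g and Cd3e had r = 0.464 and rho = 0.486 (exact permutation p = 0.367 for r, adjusted p = 0.44), and r = -0.0459 without PBS replicate 1. For both pairs this was the lowest r with a single library left out. Leaving out another library could raise r, and the ranges are given at the end. The class II chains and Cd74 had a median r of 0.219 with the 17 T cell identity genes (68 pairs, 0 above 0.8). The macrophage genes had 0.156 with them (153 pairs, 1 above 0.8).

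Taken over all libraries of both groups, some members stood outside the shared pattern. The median r with the other members was -0.417 for Xcr1, -0.141 for Cd86 and Cd209a, -0.0675 for Itgax, 0.0233 for Apoe and 0.0646 for Zbtb46. Within the IL-10/Fc group Zbtb46 ran in the order of H2-Aa, with 4.76, 9.38, 21.7 and 18.9 CPM in replicates 1 to 4. Its PBS values of 61.04 and 23.3 CPM were above all of these. The lowest coefficient of any pair of members was -0.949, between Itgax and Zbtb46, and the highest 0.994, between H2-Aa and H2-Eb1. Neighbouring genes did not always vary alike: Itgam and Itgax lie 11.1 kb apart on chromosome 7 and had r = 0.290, while C1qb and C1qc lie 3.62 kb apart on chromosome 4 and had r = 0.979.

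**Figure D4:**
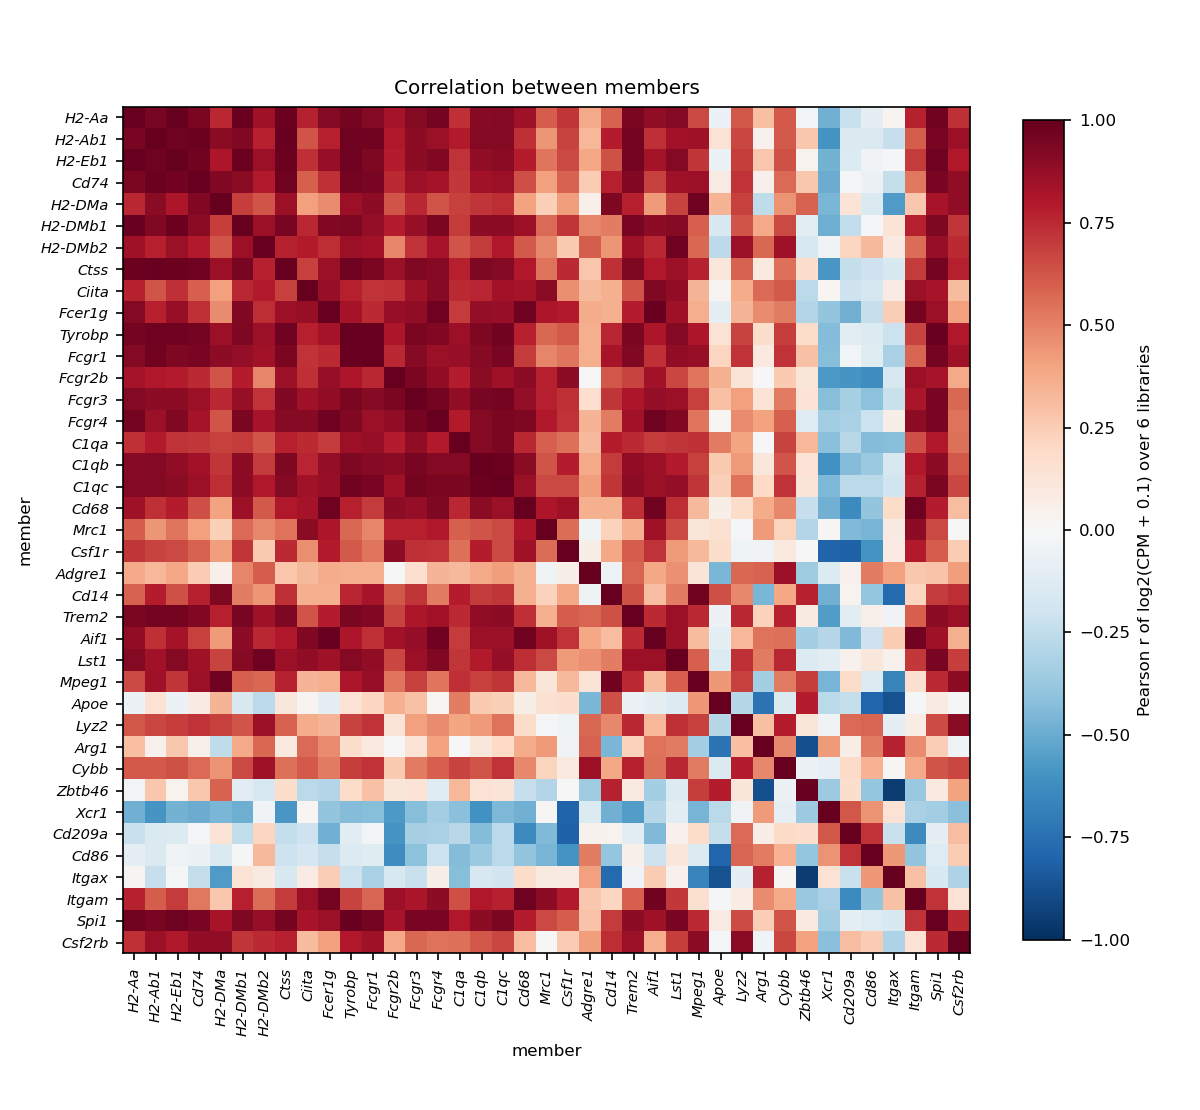
Pearson's r of log2(TMM-scaled CPM + 0.1) over the 6 libraries for every pair of members, with members in role order on both axes and colour for r. Class II, Fc receptor and C1q genes form a block of high r, and Xcr1, Cd86, Itgax, Apoe and Zbtb46 stand outside it.

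Ratios of counts within a library do not depend on depth or scaling. The ratio of Cd74 to H2-Aa was 0.504, 0.479, 0.476 and 0.418 in IL-10/Fc replicates 1 to 4, against 1.17 and 1.09 in PBS replicates 1 and 2. The ratio averaged 0.469 ± 0.0364 in IL-10/Fc libraries and 1.13 ± 0.0576 in PBS libraries (SD, n = 4 and 2), a log2 difference of -1.27 with no overlap, although H2-Aa itself ranged over 23.7 to 425 CPM in IL-10/Fc libraries and 21.2 to 43.1 CPM in PBS libraries. The ratio of H2-Ab1 to H2-Aa was 1.16, 2.05, 2.12 and 2.34 in IL-10/Fc replicates 1 to 4, against 3.85 and 2.66 in PBS replicates 1 and 2. Tyrobp to Fcer1g was 0.144, 0.268, 0.320 and 0.364 in IL-10/Fc replicates 1 to 4, against 0.522 and 0.738 in PBS replicates 1 and 2. These 3 ratios were lower in every IL-10/Fc library than in either PBS library. Each had a two-sided exact permutation p of 0.133, the smallest that 4 against 2 libraries allow, and an adjusted p of 0.267 over the 6 ratios, so none could pass. The ratios of H2-Eb1 to H2-Aa, C1qa to C1qb and C1qc to C1qb overlapped between groups.

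**Figure D5:**
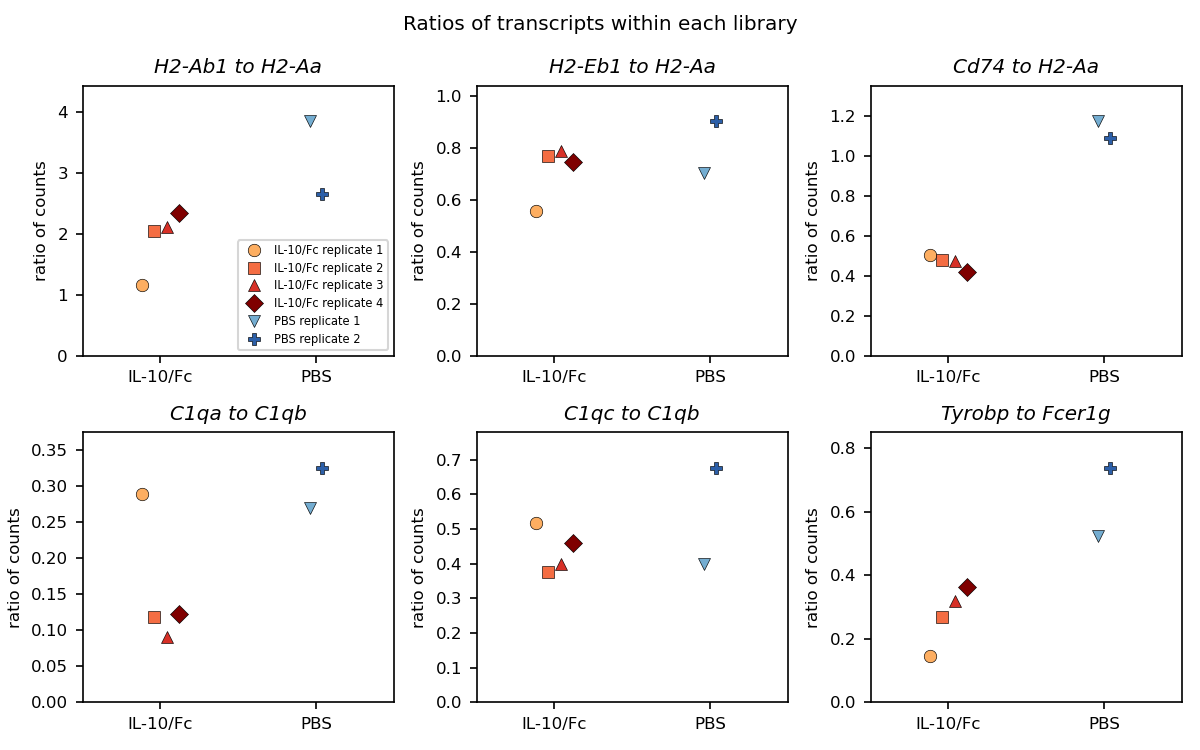
Ratio of counts within each library for 6 pairs of members, on axes from 0, with IL-10/Fc left of PBS. Each point is 1 library. Cd74 to H2-Aa lies between 0.418 and 0.504 in IL-10/Fc libraries and at 1.17 and 1.09 in PBS libraries.

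Markers of other cells were read as summed levels and by gene. A further 33 listed macrophage and monocyte markers had a median edgeR log2 fold change of 1.29, 26 above 0 and 6 below among 32 tested. By the authors' deposited table, 10 of these 33 passed as higher, against 3.57% of all genes, and 0 by edgeR's adjusted p. Ms4a6c, a membrane protein of monocytes, had 113, 95.3, 108 and 119 CPM in IL-10/Fc replicates 1 to 4, against 45.5 and 64.2 CPM in PBS replicates 1 and 2, without overlap (edgeR adjusted p = 0.174). Pltp, a phospholipid transfer protein, had 12.8, 16.04, 16.7 and 15.6 CPM in IL-10/Fc replicates 1 to 4, against 0.136 and 1.31 CPM in PBS replicates 1 and 2, also without overlap (edgeR adjusted p = 0.179). Together the 33 summed to 12835, 10202, 7399 and 9980.0 CPM in IL-10/Fc replicates 1 to 4, against 5391 and 4326 CPM in PBS replicates 1 and 2. Ly6c2, Plac8, Lilrb4a, Ccl9 and Lgals3 had the highest mean CPM among them. The sum was highest in IL-10/Fc replicate 1, unlike that of the members. Ly6c2 alone had 6761, 5326, 2297 and 4561 CPM in IL-10/Fc replicates 1 to 4, against 2173 and 1199 CPM in PBS replicates 1 and 2. The sum thus mainly followed a few abundant transcripts, and whether macrophages or the T cells made them was not tested.

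The 7 listed B cell markers had 4 log2 fold changes above 0 and 3 below, with a median of 0.08. They summed to 8.81, 40.2, 44.8 and 20.7 CPM in IL-10/Fc replicates 1 to 4, against 49.3 and 72.6 CPM in PBS replicates 1 and 2. Ighm, the IgM heavy chain, had 2.18, 1.85, 6.196 and 12.4 CPM in IL-10/Fc replicates 1 to 4, against 42.5 and 42.1 CPM in PBS replicates 1 and 2, and Ighd, the IgD heavy chain, had 0, 0, 0.0360 and 0 CPM in IL-10/Fc replicates 1 to 4, against 0.713 and 1.44 CPM in PBS replicates 1 and 2. The authors' deposited table called these 2 of the 7 lower, against 1.72% of all genes, and edgeR's adjusted p called neither. Cd79b and Igkc, named after their values were seen, went differently: Cd79b, a signalling chain of the B cell receptor, had 1.74, 6.56, 4.25 and 3.11 CPM in IL-10/Fc replicates 1 to 4, against 0 and 0.719 CPM in PBS replicates 1 and 2, higher in every IL-10/Fc library, and Igkc, the kappa light chain, had 3.82, 31.1, 33.6 and 0.941 CPM in IL-10/Fc replicates 1 to 4, against 5.71 and 25.2 CPM in PBS replicates 1 and 2. B cell markers thus followed no single order over the libraries. Cd79a and Flt3 were not analysed here.

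The 10 listed dendritic cell markers outside the members had 3 log2 fold changes above 0 and 5 below among 8 tested, with a median of -0.06. They summed to 519.7, 385, 474 and 526 CPM in IL-10/Fc replicates 1 to 4, against 4353 and 853 CPM in PBS replicates 1 and 2, and in PBS libraries most of it was Ccr7. The authors' deposited table called 1 of the 10, Ccr7, lower, and 0 higher, against 1.72% of all genes called lower and 3.57% called higher. Naaa, an acid amidase named after its values were seen, had 5.09, 16.1, 57.2 and 55.3 CPM in IL-10/Fc replicates 1 to 4, against 5.57 and 13.3 CPM in PBS replicates 1 and 2, highest in IL-10/Fc replicates 3 and 4.

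Neutrophil and mast cell markers (6 listed) summed to 4.89, 8.999, 22.4 and 12.3 CPM in IL-10/Fc replicates 1 to 4, against 7.54 and 11.04 CPM in PBS replicates 1 and 2. Ltf, lactoferrin, named after its values were seen, had 0.0335, 3.17, 17.2 and 3.73 CPM in IL-10/Fc replicates 1 to 4, against 0 and 9.61 CPM in PBS replicates 1 and 2 and so made up most of the sum in IL-10/Fc replicate 3. Ly6g, a surface antigen of neutrophils, had 4.12, 3.84, 1.84 and 4.05 CPM in IL-10/Fc replicates 1 to 4, against 1.66 and 1.11 CPM in PBS replicates 1 and 2, which was highest in IL-10/Fc replicate 1. Melanoma markers (6 listed) summed to 9.65, 12.2, 10.8 and 10.3 CPM in IL-10/Fc replicates 1 to 4, against 2.31 and 7.84 CPM in PBS replicates 1 and 2, and the melanocyte antigen Mlana had 0.101, 3.31, 0.793 and 3.68 CPM in IL-10/Fc replicates 1 to 4, against 0 and 0.621 CPM in PBS replicates 1 and 2. Both lists stayed low in every library. Stromal markers (2 listed) summed to 6.903, 9.87, 6.59 and 8.61 CPM in IL-10/Fc replicates 1 to 4, against 20.4 and 16.6 CPM in PBS replicates 1 and 2, mostly Pecam1. Pecam1 was lower in every IL-10/Fc library, with an adjusted p of 0.00270 in the authors' deposited table and 0.197 by edgeR. It was the 1 of the 2 called in the authors' table, against 1.72% of all genes called lower.

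NK cell markers (7 listed), several of which activated CD8+ T cells also express, summed to 1507, 2022, 1244 and 1642 CPM in IL-10/Fc replicates 1 to 4, against 1291 and 1061 CPM in PBS replicates 1 and 2, with 4 log2 fold changes above 0 and 3 below. Klrb1c, which encodes NK1.1, had 0.0335, 0.0698, 0.720 and 0.228 CPM in IL-10/Fc replicates 1 to 4, against 10.1 and 0.0654 CPM in PBS replicates 1 and 2, and nearly all of it was in PBS replicate 1. Klra8, an activating Ly49 receptor, had 4.22, 0.732, 1.62 and 4.703 CPM in IL-10/Fc replicates 1 to 4, against 0.272 and 0.327 CPM in PBS replicates 1 and 2, and Klra9, another gene of the Ly49 family, had 2.95, 6.56, 13.3 and 18.98 CPM in IL-10/Fc replicates 1 to 4, against 3.02 and 1.54 CPM in PBS replicates 1 and 2. Klra8 was higher in every IL-10/Fc library, with an edgeR adjusted p of 0.285, and the authors' deposited table gave it an adjusted p of 0.0160. It was the 1 of the 7 called in the authors' table, against 3.57% of all genes called higher. The NK cell genes therefore differed in direction. The part of other cells in the levels of the members was not tested.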

How the data were processed

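RNA of 6 libraries of sorted CD8+ T cells, 4 IL-10/Fc and 2 PBS, was analysed by group as the labels give it. Per the labels' protocols, libraries were made with Smart-Seq2, which keeps no strand and counts no molecular identifiers, so floors cover counting error only. The SEs of the edgeR fit and the SDs also hold the spread between libraries. Per the submitters' processing notes, Trimmomatic, TopHat2 2.1.1, Bowtie2 2.2.9, Cufflinks 2.2.1, Cuffdiff and DESeq2 were used with GRCm38; the order of use and the counter are not given in any source used. The authors deposited raw counts per gene, in files of single libraries and in a table of the series. The authors' deposited table also holds a mean signal of normalized counts, log2 fold changes, a test score, p-values and adjusted p-values.

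Counts were tested with edgeR 4.0.16 (R 4.3.3; filterByExpr by group, TMM, robust quasi-likelihood F test, two-sided, Benjamini-Hochberg over 15477 genes, threshold 0.05). The biological coefficient of variation was 0.543. Correlations used log2(TMM-scaled CPM + 0.1) with exact permutation over 720 orderings of the libraries (scipy 1.17.1). Exon lengths and coordinates came from GENCODE (GRCm38), and promoters from RefSeq (GRCm38.p6). Alternatives were DESeq2 1.42.0 (Wald test and size factors), limma-voom (limma 3.58.1), library size alone, other filters, no robust option, a pseudocount of 1 CPM, a replicate block and leaving out each library. Leaving out each library in DESeq2 was added after seeing the data.

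Values in every library are given for the class II chains, Cd74, the adaptors and members with a mean of at least 20 CPM or an adjusted p under 0.05 in any fit printed; other members are given by range or count. The members and lists were chosen with earlier results of these data known. Replicate numbers of the 2 groups did not pair the libraries by any label.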

Additional observations from a re-analysis of the deposited data

Results flagged for a closer look

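Cd209a stood out in IL-10/Fc replicate 4, at 0.0285 CPM (1 count), because the other 3 IL-10/Fc libraries had 0. The gap is that of a single count and lies under the floor of 3 counts. Chance alone flags about 1 in 20 groups by this criterion, and 39 members were examined.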

How the results depend on the processing

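edgeR called 0 members higher and 0 lower under every normalization, filter, block and left-out library tried, and limma-voom called 0 in both directions; DESeq2's Wald test called 8 higher and 0 lower. Left-out libraries moved the DESeq2 count of members called higher between 5 (without PBS replicate 1) and 18 (without IL-10/Fc replicate 1), and the edgeR counts stayed at 0. The median log2 fold change of the members was 1.46; without single libraries it lay between 1.11 and 1.93. With the replicate block it was 0.31. By the sample titles, which the block followed, replicate numbers are shared by IL-10/Fc and PBS libraries 1 and 2 only. The deposited column names number the PBS libraries 2 and 3 instead, so the block rests on 1 of 2 numberings. Deviations of libraries with the same title number correlated at 0.0617 and 0.0138, and the block leaves IL-10/Fc replicates 3 and 4 without a partner. The numbers were therefore not taken as pairs.

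With the replicate block, log2 fold changes turned to -0.16 for H2-Ab1, -0.31 for Cd74, -0.56 for H2-DMa, -0.037 for Tyrobp, -0.32 for Fcgr1, -0.23 for C1qa, -2.87 for Cd14, -3.23 for Mpeg1, 0.10 for Cd86 and -1.68 for Csf2rb. With library size alone H2-DMa was at -0.10. With limma-voom H2-DMa was at -0.050, Cd14 at -0.71, Mpeg1 at -1.29, Lyz2 at 0.0011 and Csf2rb at -0.39. Left-out libraries turned the sign of 8 members, none of them called: the ranges were -0.21 to 0.30 for H2-DMa, -0.18 to 0.996 for Cd14, -0.16 to 0.91 for Mpeg1, -2.19 to 0.87 for Apoe, -1.17 to 1.73 for Lyz2, -0.47 to 0.24 for Xcr1, -0.67 to 0.49 for Cd86 and -0.43 to 1.97 for Csf2rb. The correlation of H2-Aa with Cd3e ranged over -0.346 to 0.652 and that of Fcer1g with Cd3e over -0.0459 to 0.607. DESeq2 called Zbtb46 lower without IL-10/Fc replicate 3 or PBS replicate 2, and Cd209a, whose counts lay in PBS replicate 2, lower without IL-10/Fc replicate 2, 3 or 4 or PBS replicate 1. The cause of these shifts was not tested. With 2 PBS libraries, no exact test of a single value could pass the threshold, and members under a few CPM rest on few counts.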
